A study of Mus musculus with 11 samples.

Results

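The genes described here encode subunits of the 3 nuclear RNA polymerases, of Mediator and of TFIID, the complexes that start transcription. Members were chosen by symbol, as every measured gene whose symbol begins with Polr1, Polr2 or Polr3, or with Med or Taf followed by a digit. The rule found 81 of 19938 measured genes: 5 of RNA polymerase I, 13 of polymerase II, 9 of polymerase III, 30 of Mediator, 17 of TFIID and 7 other genes with a Taf symbol. The rule itself uses symbols alone, but the set was proposed with earlier results of these data known.

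The tissue came from CD1 outbred mouse embryos at embryonic day 8.5, with no further genotype or treatment in the labels. The 3 groups were neuroepithelium with 3 arrays, paraxial mesoderm with 3 and neural crest with 5, taken from frozen sections by laser capture, with the RNA amplified before it was put on the 11 Affymetrix mouse ST arrays. The design text speaks of captured single cells, and the labels give neither the cells nor the embryos behind an array. A p-value here therefore refers to array-to-array spread alone, and is too small if arrays of a tissue shared an embryo. Each deposited value was a ratio to a reference of its own probe, not a level, so genes are not ranked by expression. On 8 of the 11 arrays the median over probes was exactly 1. For 70 of the 81 members exactly 1 of those 8 arrays was at 1, and for 70 of these 3 or 4 of the other arrays lay below 1. The reference thus lay at the middle of these arrays, and a member at a similar level on most arrays shows as near 1 on them.

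RNA polymerase I transcribes the large ribosomal RNA, polymerase II makes messenger RNA, and polymerase III makes transfer RNA, 5S RNA and other small RNAs. TFIID binds the core promoter through the TATA-binding protein and its Taf subunits, and Mediator carries signals from bound activators to polymerase II. Core subunits of these complexes are needed in all cells. In people, mutations of POLR1C and POLR1D, which encode subunits shared by polymerases I and III, cause Treacher Collins syndrome, a disorder of facial bones built by the neural crest.

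Promoters of the 3 members whose arrays of one tissue lay apart from those of neuroepithelium by a log2 difference of at least 1 are shown first, since the comparisons of tissues below turn on them. They are Polr2m, Polr1e and Med22. Each is the 150 bases before a transcription start in RefSeq (GRCm38.p6), written 5′ to 3′ on the strand of the gene, and Polr2m has 2 starts in that table. Capitals mark the letters of a GC box (GGGCGG or its reverse complement CCGCCC) or of a CCAAT box (CCAAT or ATTGG).
Polr2m, first promoter, chr9:71485984-71486133, minus strand: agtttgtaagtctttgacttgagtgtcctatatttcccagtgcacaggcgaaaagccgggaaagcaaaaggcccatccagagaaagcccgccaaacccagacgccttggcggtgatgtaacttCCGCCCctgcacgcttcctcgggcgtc
Polr2m, second promoter, chr9:71484959-71485108, minus strand: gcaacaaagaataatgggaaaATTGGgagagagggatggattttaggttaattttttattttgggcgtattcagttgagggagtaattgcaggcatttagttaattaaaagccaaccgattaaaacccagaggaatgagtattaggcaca
Polr1e, chr4:45018459-45018608, plus strand: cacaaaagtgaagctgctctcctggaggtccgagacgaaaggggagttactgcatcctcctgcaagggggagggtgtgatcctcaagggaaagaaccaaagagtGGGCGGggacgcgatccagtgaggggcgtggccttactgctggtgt
Med22, chr2:26910643-26910792, minus strand: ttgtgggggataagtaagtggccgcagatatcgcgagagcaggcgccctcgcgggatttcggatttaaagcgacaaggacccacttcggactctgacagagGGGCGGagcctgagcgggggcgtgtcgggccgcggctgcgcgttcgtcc
A GC box was in 1 promoter of each gene, and the second Polr2m promoter held a CCAAT box in its place. The RefSeq table had 82 promoters of 69 of the 81 members. A GC box on either strand was in 47 of these 82 (57.3%), against 28.6% of all 32851 promoters. The ETS core CCGGAA or TTCCGG was in 30.5% of the members' promoters and in 9.23% of all promoters. For the CCAAT box the shares were 25.6% and 24.5%, and for TATAAA or TTTATA 7.32% and 7.57%. A match of letters is a description and not a bound site.

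Most subunit genes had arrays far from the reference. Over the set as a whole, such arrays lay above and below it and occurred in all 3 tissues. Of the 81 members, 44 (54.3%) were at least 4-fold above their reference on some array, against 21.7% of all genes. Below the reference by at least 4-fold on some array were 16 members (19.8%), against 4.77% of all genes. Within 2-fold of the reference on all 11 arrays were 17 members (21.0%), against 71.8% of all genes. In what follows an array is called high or low for a gene where its ratio is at least 4-fold above or below the reference. High arrays and no low array were found for 38 members, low arrays and no high array for 10, both kinds for 6, and 10 members went beyond 2-fold but not to 4-fold. The highest ratios of the 38 lay between 4.90 and 71.7, and their ratios spanned 32.9-fold from lowest to highest array in the median. The lowest ratios of the 10 lay between 0.01 and 0.137, while their highest ratios were between 1.24 and 2.79.

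**Figure D1:**
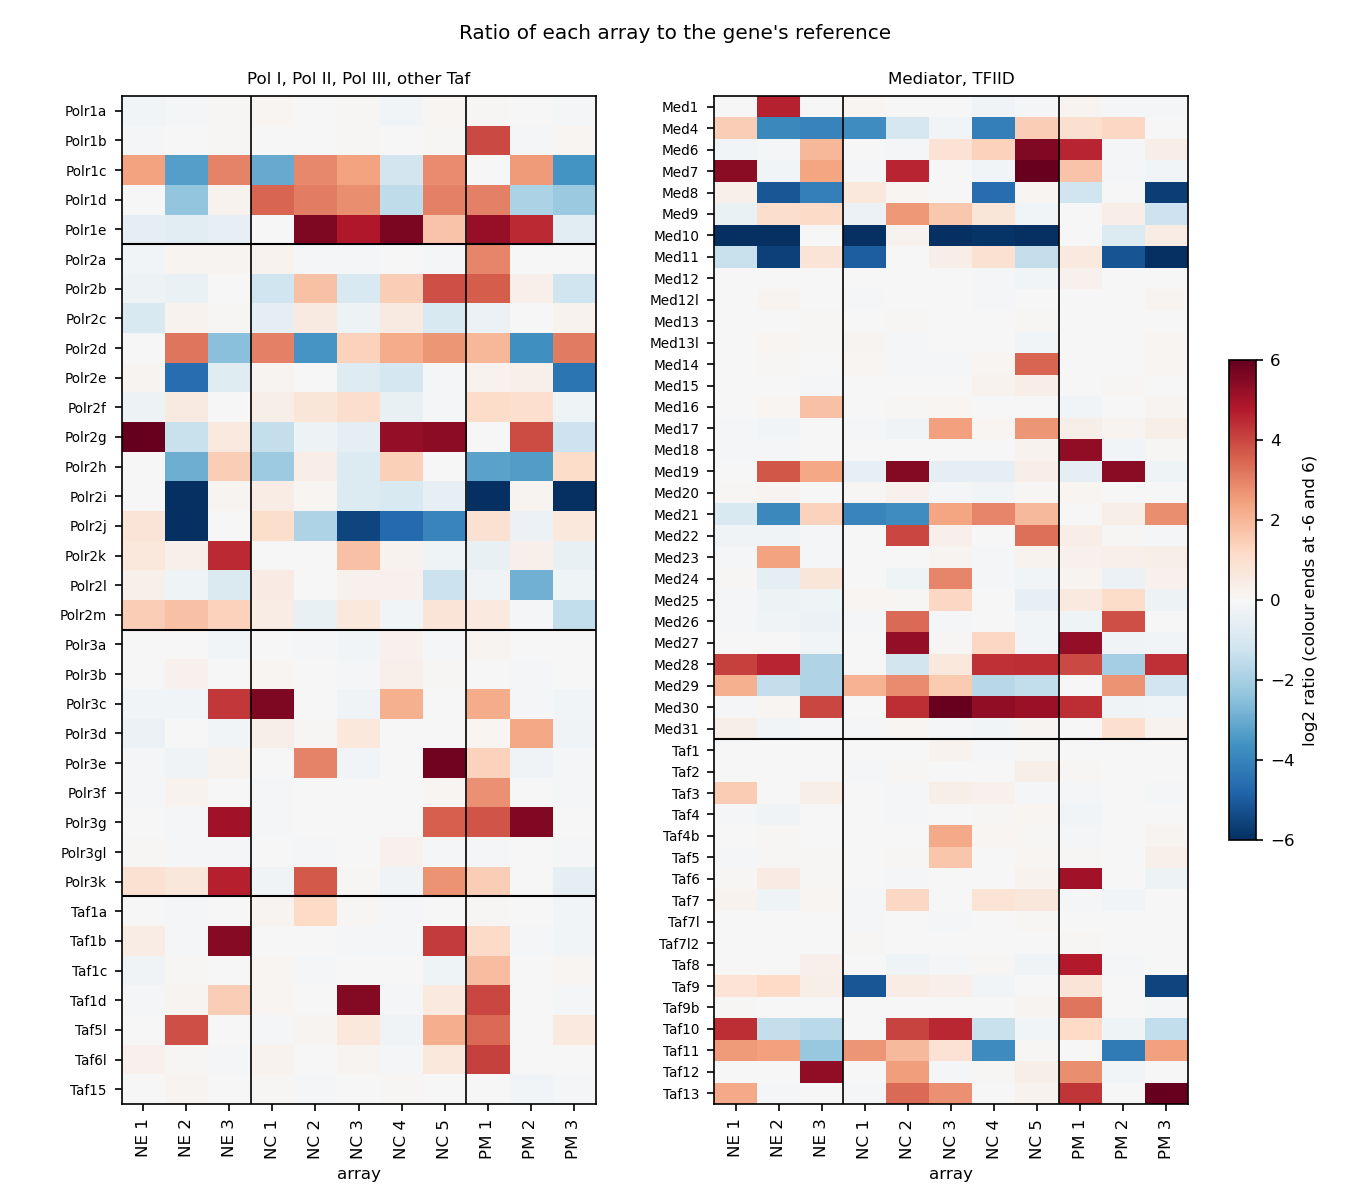
Heat map of the log2 ratio of all 81 members (rows, grouped by complex) on the 11 arrays (columns, NE neuroepithelium, NC neural crest, PM paraxial mesoderm), with the colour scale ending at 6 above and below the reference. High and low arrays are scattered over all 3 tissues, with paraxial mesoderm array 1 high for 21 members and neuroepithelium array 2 low for 11.

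The catalytic and the accessory subunits of polymerase I did not share a pattern. Polr1a, the largest catalytic subunit, stayed within 2-fold of its reference on all arrays. Polr1b, the second catalytic subunit, was high on paraxial mesoderm array 1 alone (15.5), and its other 10 ratios ran between 0.938 and 1.10. Polr1e, a subunit that helps polymerase I engage the ribosomal DNA promoter, had ratios of 0.693, 0.614 and 0.711 in neuroepithelium. Its 5 neural crest ratios were 1.00, 48.0, 28.0, 50.1 and 3.29, all above the neuroepithelium arrays. In paraxial mesoderm Polr1e was 37.9, 22.6 and 0.640, so 2 arrays were as high as the crest arrays and 1 lay among the neuroepithelium arrays. In RefSeq the gene Fbxo10 overlaps Polr1e.

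Polr1c and Polr1d form the heterodimer on which polymerases I and III are assembled. Polr1d was 1.00, 0.194 and 1.16 in neuroepithelium, 11.4, 8.43, 6.93, 0.352 and 8.21 in neural crest, and 8.12, 0.266 and 0.210 in paraxial mesoderm. It was thus high on 4 of 5 crest arrays, on no neuroepithelium array and on 1 of 3 paraxial mesoderm arrays. Polr1c was 5.26, 0.102 and 7.85 in neuroepithelium, 0.124, 7.33, 5.30, 0.471 and 7.19 in neural crest, and 1.00, 5.90 and 0.0821 in paraxial mesoderm. High and low arrays of Polr1c occurred in each tissue. The partners were both high on neural crest arrays 2, 3 and 5 and both low on neuroepithelium array 2 and paraxial mesoderm array 3, while on neural crest array 1 Polr1d was high and Polr1c low. Polr1c was high and Polr1d not on neuroepithelium arrays 1 and 3 and paraxial mesoderm array 2. On paraxial mesoderm array 1 Polr1d was high and Polr1c was at 1.00.

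A second probe of Polr1d differed at least 4-fold from the first on 6 of 11 arrays. On it the 5 crest arrays lay between 1.70 and 2.89, above all 3 neuroepithelium arrays (1.00, 0.0380 and 0.126). Its paraxial mesoderm arrays were 0.921, 1.87 and 0.0259. Both probes therefore placed most crest arrays above the neuroepithelium arrays, by different amounts. Polymerase I subunits listed under other symbols also varied: Znrd1, the small subunit that cleaves RNA, was high on 6 arrays, with values from 7.40 to 20.3, and Twistnb, a stalk subunit, was high on 6 arrays and low on 2. Cd3eap, the partner of Polr1e, was high on neuroepithelium array 2 (11.8), neural crest array 4 (11.1) and paraxial mesoderm array 1 (4.62).

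Within polymerase II, 6 of 13 members had a low array, a larger share (46.2%) than in any other complex, against 4.77% of all genes. Low arrays were found for Polr2d, Polr2e, Polr2h, Polr2i, Polr2j and Polr2l, of which Polr2e, Polr2h and Polr2l are small subunits common to all 3 polymerases. Polr2a, the largest catalytic subunit, was high on paraxial mesoderm array 1 alone (7.57), with its other ratios between 0.890 and 1.18. Polr2b, the second catalytic subunit, was high on neural crest array 5 (14.5) and paraxial mesoderm array 1 (12.5). Polr2c, which dimerises with Polr2j, stayed between 0.524 and 1.47 on the probe used. Its other probe was at least 4-fold apart on 4 arrays.

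Polr2i, a small subunit that supports accurate elongation, was 1.00, 0.0116 and 1.13 in neuroepithelium. In neural crest it was 1.36, 1.08, 0.573, 0.523 and 0.712, and in paraxial mesoderm 0.0105, 1.11 and 0.01. The value of 0.01 was the lowest deposited and was reached by 69 probes, so it may be a floor. The size of the Polr2i differences given below rests on values at or near it. No crest array was low for Polr2i, against 1 neuroepithelium and 2 paraxial mesoderm arrays. The genes Tbcb and Ovol3 overlap Polr2i in RefSeq. Polr2j was low on neuroepithelium array 2 (0.0149) and on neural crest arrays 3, 4 and 5 (0.0223, 0.0395 and 0.0638), and its 3 paraxial mesoderm ratios were 1.90, 0.795 and 1.55. Polr2e was low on neuroepithelium array 2 (0.0423) and paraxial mesoderm array 3 (0.0479), the same arrays on which Polr1d was low.

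The stalk of polymerase II, built of Polr2d and Polr2g, was as variable. Polr2d was high on neuroepithelium array 2 (9.34), on neural crest arrays 1, 4 and 5 (8.25, 4.67 and 6.37) and on paraxial mesoderm array 3 (8.77). It was low on neuroepithelium array 3 (0.176), neural crest array 2 (0.0852) and paraxial mesoderm array 2 (0.0768). Its partner Polr2g was high on neuroepithelium array 1 (65.6), neural crest arrays 4 and 5 (38.3 and 41.9) and paraxial mesoderm array 2 (15.0). The stalk partners were thus both high on neural crest arrays 4 and 5, while on paraxial mesoderm array 2 Polr2g was high and Polr2d low. Polr2k, another subunit of all 3 polymerases, was high on neuroepithelium array 3 alone (21.9).

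Polr2m encodes Gdown1, a protein that associates with polymerase II and makes it dependent on Mediator, and is not a core subunit. It was 2.76, 3.35 and 2.59 in neuroepithelium, 1.35, 0.723, 1.57, 0.892 and 1.70 in neural crest, and 1.51, 0.963 and 0.362 in paraxial mesoderm. All 3 neuroepithelium arrays lay above all 8 others, and the replicate spread was the smallest in neuroepithelium (log2 mean 1.53 ± 0.19, SD, n = 3, against 0.24 ± 0.54, n = 5, and -0.31 ± 1.06, n = 3).

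**Figure D2:**
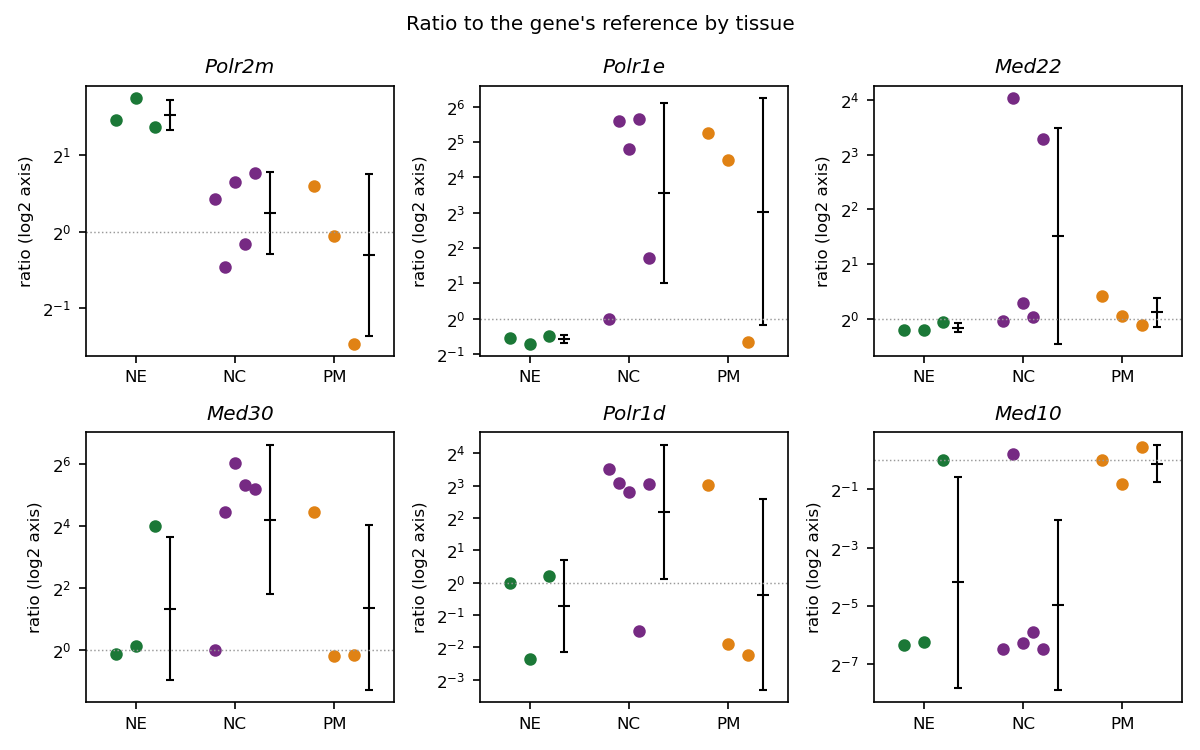
Log2 ratio of Polr2m, Polr1e, Med22, Med30, Polr1d and Med10 by tissue (NE, NC, PM), with a point for each array and a bar for the mean ± SD. The 3 neuroepithelium arrays of Polr2m lie between ratios of 2.59 and 3.35, above every other array, while the other genes have arrays near the reference and far from it within 1 tissue.

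Polymerase III had high arrays for 6 of 9 members (66.7%, against 21.7% of all genes). None had a low array, against 4.77% of all genes, and with 9 members this does not set the complex apart. Both catalytic subunits, Polr3a and Polr3b, stayed within 2-fold of the reference on all arrays. Polr3c, Polr3f and Polr3g or its paralog Polr3gl form the subcomplex that opens the promoter. Polr3g was high on neuroepithelium array 3 (33.4), neural crest array 5 (11.9), paraxial mesoderm array 1 (13.5) and paraxial mesoderm array 2 (47.1), with the other 7 arrays between 0.920 and 1.02. Polr3gl, in contrast, lay between 0.912 and 1.18 on all 11 arrays. In mouse and human stem cells Polr3g is known as the form of pluripotent cells and Polr3gl as the form of most other cells.

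Polr3c shared a high array with Polr3g on neuroepithelium array 3 (19.2) and paraxial mesoderm array 1 (4.62), and was also high on neural crest array 1 (48.3) and array 4 (4.33). Polr3f was high on paraxial mesoderm array 1 alone (6.65). The pair related to the elongation factor TFIIF, Polr3d and Polr3e, shared no high array: Polr3d reached 4.94 on paraxial mesoderm array 2, and Polr3e 7.92 and 54.8 on neural crest arrays 2 and 5. A second probe of Polr3e read 17.6 on neural crest array 2 and 0.972 on array 5, a 56.4-fold gap between probes on array 5. Polr3k, which cleaves RNA at termination, was high on neuroepithelium array 3 (25.6) and on neural crest arrays 2 and 5 (12.9 and 6.53).

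Mediator is built of a head, a middle, a tail and a kinase module. Of the kinase module, Med12, Med12l, Med13 and Med13l all stayed within 2-fold of the reference on all arrays, between 0.897 and 1.20, as did Med15 of the tail and Med20 of the head. Over the 30 members, 17 had a high array (56.7%, against 21.7% of all genes) and 6 a low array (20.0%, against 4.77%). The kinase itself, Cdk8, was high on neuroepithelium array 3 (22.3), neural crest array 5 (7.30) and paraxial mesoderm array 1 (18.6), while its cyclin Ccnc reached 3.08 on neuroepithelium array 1.

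In the head, Med30 was 0.916, 1.08 and 15.9 in neuroepithelium, 1.00, 21.8, 65.7, 39.4 and 36.7 in neural crest, and 21.6, 0.869 and 0.897 in paraxial mesoderm. It was high on 4 of 5 crest arrays and on 1 of 3 arrays of each other tissue. Med22 was 0.869, 0.865 and 0.960 in neuroepithelium, 0.974, 16.3, 1.22, 1.03 and 9.75 in neural crest, and 1.34, 1.03 and 0.928 in paraxial mesoderm. The crest arrays of Med22 all lay above those of neuroepithelium, but only arrays 2 and 5 were high. Med17, the head's central scaffold, was high on neural crest arrays 3 and 5 (5.42 and 6.29). Med18 was high on paraxial mesoderm array 1 alone (39.5), whereas Med8, to which it binds, was low on neuroepithelium arrays 2 and 3 (0.0285 and 0.0583), neural crest array 4 (0.0423) and paraxial mesoderm array 3 (0.0201). Elsewhere in Mediator, Med19 was high on 4 arrays, with 45.2 on neural crest array 2 and 42.6 on paraxial mesoderm array 2. Med27 was high on neural crest array 2 (38.6) and paraxial mesoderm array 1 (39.1).

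In the middle module, Med10 was 0.0122, 0.0134 and 1.00 in neuroepithelium and 0.0112, 1.16, 0.0130, 0.0169 and 0.0112 in neural crest. Its paraxial mesoderm ratios were 1.01, 0.565 and 1.37. It was low on 6 arrays, more than any other member, and none of the 6 was of paraxial mesoderm. These low ratios were near the lowest deposited value of 0.01. The size of the Med10 differences given below therefore rests on values near a possible floor. Med4 was low on neuroepithelium arrays 2 and 3 (0.0687 and 0.0627) and neural crest arrays 1 and 4 (0.0764 and 0.0576), and was 1.96, 2.39 and 1.00 in paraxial mesoderm. Med7 and Med21 form the hinge of this module. Med7 was high on neuroepithelium arrays 1 and 3 (42.8 and 5.12) and neural crest arrays 2 and 5 (24.0 and 62.7), and Med21 on neural crest arrays 3 and 4 (5.10 and 7.73) and paraxial mesoderm array 3 (6.91). Med21 was low on neuroepithelium array 2 (0.0681) and neural crest arrays 1 and 2 (0.0636 and 0.0754). The hinge partners shared no high array at the 4-fold cut, though Med21 was at 3.87 on neural crest array 5. On neural crest array 2 Med7 was high and Med21 low. Med1, a docking subunit for nuclear receptors, was high on neuroepithelium array 2 alone (24.8), and Med14, the backbone of Mediator, on neural crest array 5 alone (11.3). In the tail, which activators contact, Med23 was high on neuroepithelium array 2 alone (5.35) and Med24 on neural crest array 3 alone (7.69), while Med16 and Med25 reached at most 3.34 and 2.38.

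TFIID had high arrays for 8 of 17 members (47.1%, against 21.7% of all genes) and low arrays for 2 (11.8%, against 4.77%). Taf1, its largest subunit, Taf2 and Taf4 stayed within 2-fold on all arrays, as did Taf7l and Taf7l2. Taf11 and Taf13, which pair through histone folds, differed: Taf13 was high on neuroepithelium array 1 (4.82), neural crest arrays 2 and 3 (10.5 and 6.75) and paraxial mesoderm arrays 1 and 3 (19.3 and 71.7), and never low. Taf11 was high on neuroepithelium arrays 1 and 2 (5.82 and 5.46), neural crest array 1 (6.23) and paraxial mesoderm array 3 (5.57), and low on neuroepithelium array 3 (0.209), neural crest array 4 (0.0729) and paraxial mesoderm array 2 (0.0533). Both were high on neuroepithelium array 1 and paraxial mesoderm array 3. The second Taf13 probe was also highest on paraxial mesoderm array 3 (8.89) and neural crest arrays 3 and 2 (8.77 and 7.06).

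Taf9 was low on neural crest array 1 (0.0288) and paraxial mesoderm array 3 (0.0223), and its other 9 ratios ran from 0.883 to 2.28. Its paralog Taf9b was high on paraxial mesoderm array 1 alone (9.40). Taf10 was high on neuroepithelium array 1 (21.5) and neural crest arrays 2 and 3 (16.4 and 23.4), and Taf12 on neuroepithelium array 3 (39.5), neural crest array 2 (5.72) and paraxial mesoderm array 1 (6.91). Tbp, the TATA-binding protein itself, was at 44.4 on paraxial mesoderm array 1 and 97.1 on array 3, with its other ratios between 0.851 and 1.79. Arrays 1 and 3 of paraxial mesoderm were also the highest of Taf13 on the probe used. On its second probe array 1 was at 3.07, below neural crest arrays 3 and 2 (8.77 and 7.06).

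The other Taf symbols belong to different complexes. Taf1a to Taf1d form SL1, which recruits polymerase I: Taf1a and Taf1c did not reach 4-fold (2.32 and 3.66 at most), Taf1b was high on neuroepithelium array 3 (43.7) and neural crest array 5 (18.5), and Taf1d on neural crest array 3 (44.9) and paraxial mesoderm array 1 (16.0). Taf1d had 9 probes, of which 4 agreed within 0.023 on the log2 scale, and another probe read 104 on paraxial mesoderm array 1 and 0.964 on neural crest array 3. Taf5l and Taf6l belong to the histone acetylase complex SAGA. Taf5l was high on 3 arrays and Taf6l on paraxial mesoderm array 1 alone (17.1). Taf15, an RNA-binding protein of the FET family, stayed within 2-fold of the reference.

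The number of members off the reference differed more between arrays than between tissues. High members numbered 8, 7 and 11 on the neuroepithelium arrays, 5, 16, 11, 7 and 17 on the neural crest arrays, and 21, 8 and 5 on the paraxial mesoderm arrays. The means were 8.67 ± 2.08 (SD, n = 3), 11.2 ± 5.31 (n = 5) and 11.3 ± 8.5 (n = 3), so the tissues overlapped. Low members numbered 1, 11 and 4, then 7, 2, 2, 5 and 2, then 2, 6 and 7. On each of the 11 arrays the share of members that was high exceeded that of all genes. In neuroepithelium 9.88%, 8.64% and 13.6% of members were high, against 3.69%, 2.91% and 5.63% of all genes. In neural crest the members' shares were 6.17%, 19.8%, 13.6%, 8.64% and 21.0%, against 2.06%, 5.81%, 5.34%, 2.06% and 7.52%. In paraxial mesoderm they were 25.9%, 9.88% and 6.17%, against 8.11%, 4.03% and 1.91%. The share that was low also exceeded that of all genes on each array, though on neuroepithelium array 1 through 1 member only. For low ratios the neuroepithelium arrays had 1.23%, 13.6% and 4.94% of members against 0.757%, 2.03% and 0.507% of all genes. The neural crest arrays had 8.64%, 2.47%, 2.47%, 6.17% and 2.47% against 2.52%, 0.366%, 0.692%, 1.49% and 0.336%. The paraxial mesoderm arrays had 2.47%, 7.41% and 8.64% against 0.542%, 1.10% and 2.27%.

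**Figure D3:**
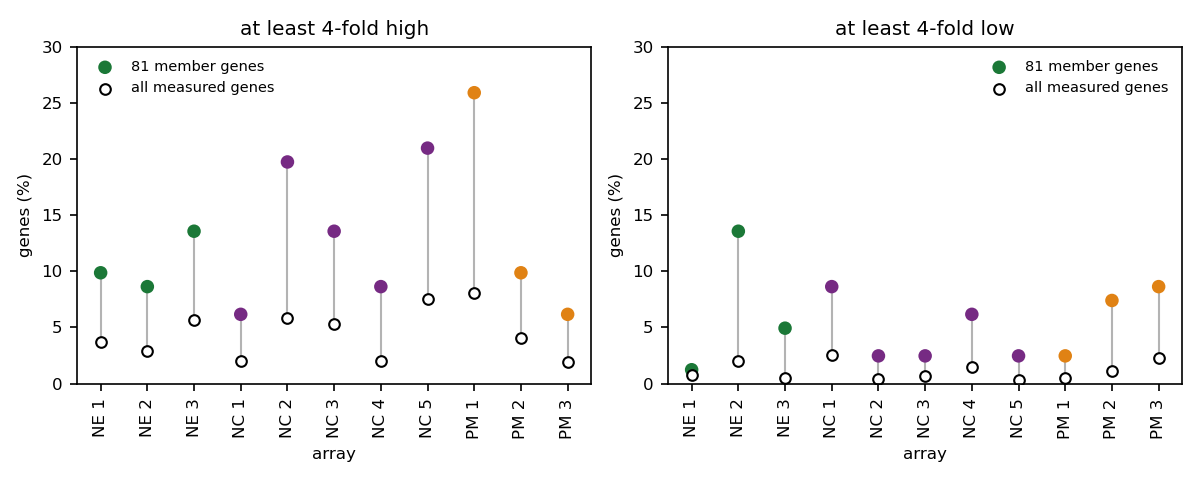
Percent of the 81 members (dots, coloured by tissue) and of all genes measured (open marks) that were at least 4-fold above or at least 4-fold below the reference on each array. On every array the members lie above all genes in both panels, from 6.17% to 25.9% high and from 1.23% (1 member) to 13.6% low.

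Paraxial mesoderm array 1 held the most high members (21). Of the 16 members high on a single array, 8 were high there: Polr1b, Polr2a, Polr3f, Med18, Taf6 (32.7), Taf6l, Taf8 (27.4) and Taf9b. These were 18.2% of the 44 members with a high array, and 10.3% of all genes with a high array were high on that array alone. All 6 markers of primitive red cells were also high on it, with a summed ratio of 649 against 5.76 to 6.68 on the other arrays, and their part in the result was not tested. Without this array 36 members (44.4%) had a high array, against 19.4% of all genes.

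High and low arrays were spread over members rather than shared by all. Of the 44 members with a high array, 16 had 1, 8 had 2, 6 had 3, 7 had 4, 4 had 5 and 3 had 6. Among these 44, 45.5% of pairs shared no high array, and among the 16 members with a low array 28.3% of pairs shared no low array. The same shares were not computed over all genes, so these do not set the members apart from other genes. Med28 and Polr2l were low on the same single array, paraxial mesoderm array 2 (0.244 and 0.137). Polr2l had no high array, but Med28 was high on 6 arrays, with values from 15.6 to 24.1. On neuroepithelium array 3 Med28 was at 0.284, just short of the cut for a low array. Med29, another Mediator subunit, was high on 4 arrays with values from 4.30 to 7.17.

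The comparison of neural crest with neuroepithelium asks which genes distinguish the crest from the epithelium it leaves. No member passed an adjusted p of 0.05 in limma (0 of 81, against 0.0301% of all genes), and the lowest adjusted p of a member was 1.00. At an unadjusted p under 0.05 there were 2 members, Polr2m and Polr1e, or 2.47% of members against 2.79% of all genes. The arrays of the tissues did not overlap for 3 members (3.70%), against 2.98% of all genes, with 2 higher in crest (1.45% of all genes) and 1 lower (1.53%). All 3 also differed by at least 1 on the log2 scale, which held for 0.802% of all genes. Polr1e was higher in crest by a log2 difference of 4.13 (SE 1.68, unadjusted p = 0.0369, limma adjusted p = 1.00). Med22 was higher in crest by 1.68 (SE 0.97, unadjusted p = 0.120, limma adjusted p = 1.00). Polr2m was lower in crest, with a log2 difference of -1.28 (SE 0.46, unadjusted p = 0.0210, limma adjusted p = 1.00).

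For other named members the arrays overlapped in this comparison. The log2 differences of crest minus neuroepithelium were 2.90 (SE 1.53) for Polr1d, 2.87 (SE 1.71) for Med30, 2.24 (SE 1.79) for Med8 and 1.75 (SE 1.91) for Polr2i. They were -1.70 (SE 1.67) for Taf9, -1.58 (SE 0.94) for Med1, -1.46 (SE 0.91) for Polr2k and -1.22 (SE 1.85) for Polr2j. Single arrays carried several of these differences. Without neuroepithelium array 2 the difference of Med1 was -0.03, that of Polr2i -0.42 and that of Med8 1.16. Without neuroepithelium array 3 that of Polr2k was -0.13, without neuroepithelium array 1 that of Polr2j was 0.047, and without neural crest array 1 that of Taf9 was -0.64. Among the members with separated arrays, Med22 was 1.05 without neural crest array 2 and 1.24 without neural crest array 5. With the mean of both Polr1d probes its difference was 3.32 (SE 1.24). All 5 polymerase I members had a difference above 0, with a median of 0.11. Medians were 0.23 for polymerase II, 0.04 for polymerase III, 0.20 for Mediator, 0.01 for TFIID and 0.01 for the other Taf genes. Over the 81 members the median was 0.08 and over all genes 0.00, with 60.5% and 50.2% of differences above 0.

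Markers of surface ectoderm and epithelium ran with the same contrast. Of 5 such markers, 4, 5 and 4 were high on the neuroepithelium arrays, at most 1 on any crest array, and 0, 3 and 1 on the paraxial mesoderm arrays. Their summed ratios were 193 to 263, 4.23 to 40.3 and 3.87 to 217. Their part in the results for Polr2m, Polr1e and Med22 was not tested. No marker of neuroepithelium, paraxial mesoderm or endothelium was high on any array, so these ratios do not check those labels. Of 6 crest markers, 1 to 4 were high on each crest array, 1 on neuroepithelium array 3 and none on the other arrays. In tissue captures, fewer cells of a type and less RNA per cell cannot be told apart.

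The comparison of paraxial mesoderm with neuroepithelium gave no member past the threshold (0 of 81, against 0.015% of all genes). At an unadjusted p under 0.05 Polr2m was the only member (1.23%, against 2.48% of all genes). It was lower in paraxial mesoderm by a log2 difference of -1.84 (SE 0.51, unadjusted p = 0.00608, limma adjusted p = 1.00). Arrays did not overlap for 2 members (2.47%, against 6.85% of all genes), Polr2m, lower (4.02% of all genes were), and Med17, higher (2.82%). Med17 was named after its values were seen and was higher in paraxial mesoderm by 0.39 (SE 0.79). Over the 3 tissues together, 0 members passed limma's F test (0.0301% of all genes did), and Polr2m alone had an unadjusted p under 0.05 (0.0158), as had 2.57% of all genes.

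Among the other named members, paraxial mesoderm minus neuroepithelium was 4.08 (SE 2.15) for Med10, 3.61 (SE 1.88) for Polr1e, 2.87 (SE 1.80) for Med4, 2.75 (SE 1.62) for Taf13 and 2.19 (SE 2.24) for Med21. It was -2.36 (SE 1.86) for Taf9, -2.27 (SE 2.14) for Polr2i, -2.05 (SE 2.01) for Med7 and -1.98 (SE 1.02) for Polr2k. These members all had overlapping arrays. Without paraxial mesoderm array 3 the difference was -0.41 for Taf9, -1.12 for Polr2i and 1.41 for Taf13. Without single neuroepithelium arrays it was -0.61 for Med7 (array 1), 0.82 for Med21 (array 2) and -0.65 for Polr2k (array 3). The median over the 81 members was 0.04, with 46 above 0. By complex the medians ran from 0.01 in TFIID to 0.34 in polymerase I.

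The comparison of neural crest with paraxial mesoderm likewise gave no member past the threshold (0 of 81, against 0.01% of all genes). Med10 alone had an unadjusted p under 0.05 (1.23% of members, against 2.89% of all genes), with a log2 difference of crest minus paraxial mesoderm of -4.86 (SE 1.93, unadjusted p = 0.0330, limma adjusted p = 1.00). Its groups overlapped through neural crest array 2 (1.16). Over all settings this difference was -6.16 to -2.49. Arrays did not overlap for 1 member (1.23%, against 2.66% of all genes), with 0 higher in crest (1.46% of all genes) and 1 lower (1.2%). This was Med23, named after its values were seen, which was lower in crest by a log2 difference of -0.23 (SE 0.50).

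The differences of the other named members were 4.02 (SE 1.91) for Polr2i, 2.84 (SE 1.71) for Med30, 2.56 (SE 1.53) for Polr1d, 2.51 (SE 2.05) for Med11 and 1.61 (SE 1.84) for Taf10. They were -3.40 (SE 1.85) for Polr2j, -2.40 (SE 1.63) for Polr3g, -2.25 (SE 1.61) for Med4 and -2.23 (SE 1.45) for Taf13. With the mean of its probes Taf13 was -1.14 (SE 1.23), Med4 -3.09 (SE 1.65) and Taf10 1.25 (SE 1.26). Without paraxial mesoderm array 3 the difference was -0.89 for Taf13, 1.28 for Med11 and 1.63 for Polr1d. Without paraxial mesoderm array 2 it was -1.17 for Polr3g, and without neural crest array 3 it was 0.82 for Taf10. The median over the 81 members was 0.06, with medians of 0.52 for polymerase I, 0.55 for polymerase II and -0.04 for Mediator. The 3 comparisons share arrays and are not independent of each other.

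**Figure D4:**
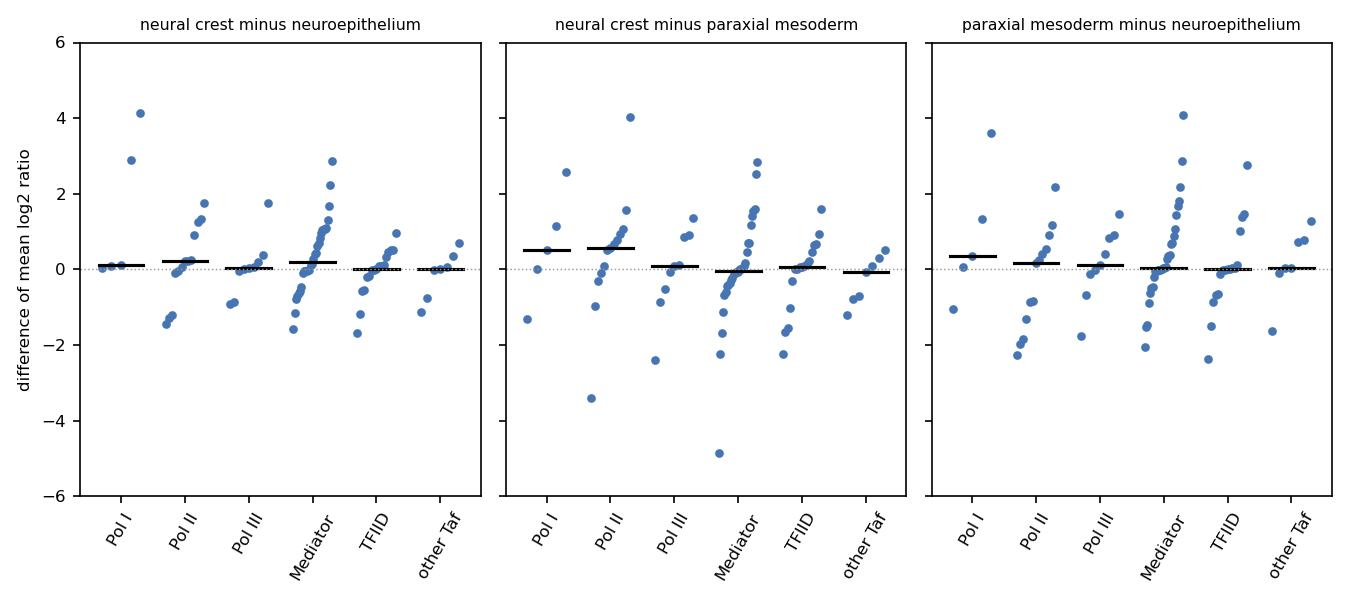
Log2 difference between tissue means for each member (points), by complex and comparison, with a line at the median of the complex. Points lie on both sides of 0 in most complexes, with medians between -0.08 and 0.55 and single members out to 4.13 above and -4.86 below 0.

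Large differences were common among members even though none passed the test. A log2 difference of at least 1 in size was found for 27.2% of members in crest against neuroepithelium, 30.9% in crest against paraxial mesoderm and 35.8% in paraxial mesoderm against neuroepithelium. Over all genes the shares were 10.8%, 11.7% and 12.9%. The spread between arrays of a tissue was large for the same members, as with Med30 in crest (log2 mean 4.20 ± 2.41, SD, n = 5) and Med10 in crest (-4.98 ± 2.92, n = 5).

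Probes of the same gene did not always agree. Of the 9 members with several probes, 8 had another probe at least 4-fold apart from the one used on some array, and Polr2l was the exception. The largest gaps were 56.4-fold for Polr3e, 47.0-fold for Taf1d, 31.5-fold for Med4 and 24.8-fold for Polr2c. For the other 72 members there was 1 single-symbol probe and no check with another such probe. Taf9, Med20 and Polr2k each also had a probe shared with another symbol, which was left out. On neuroepithelium array 3 that of Polr2k read 1.64, against 21.9 on the probe used. On neuroepithelium array 1 that of Taf9 read 20.6, against 1.76. Both probes of Med20 stayed within 2-fold of the reference.

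**Figure D5:**
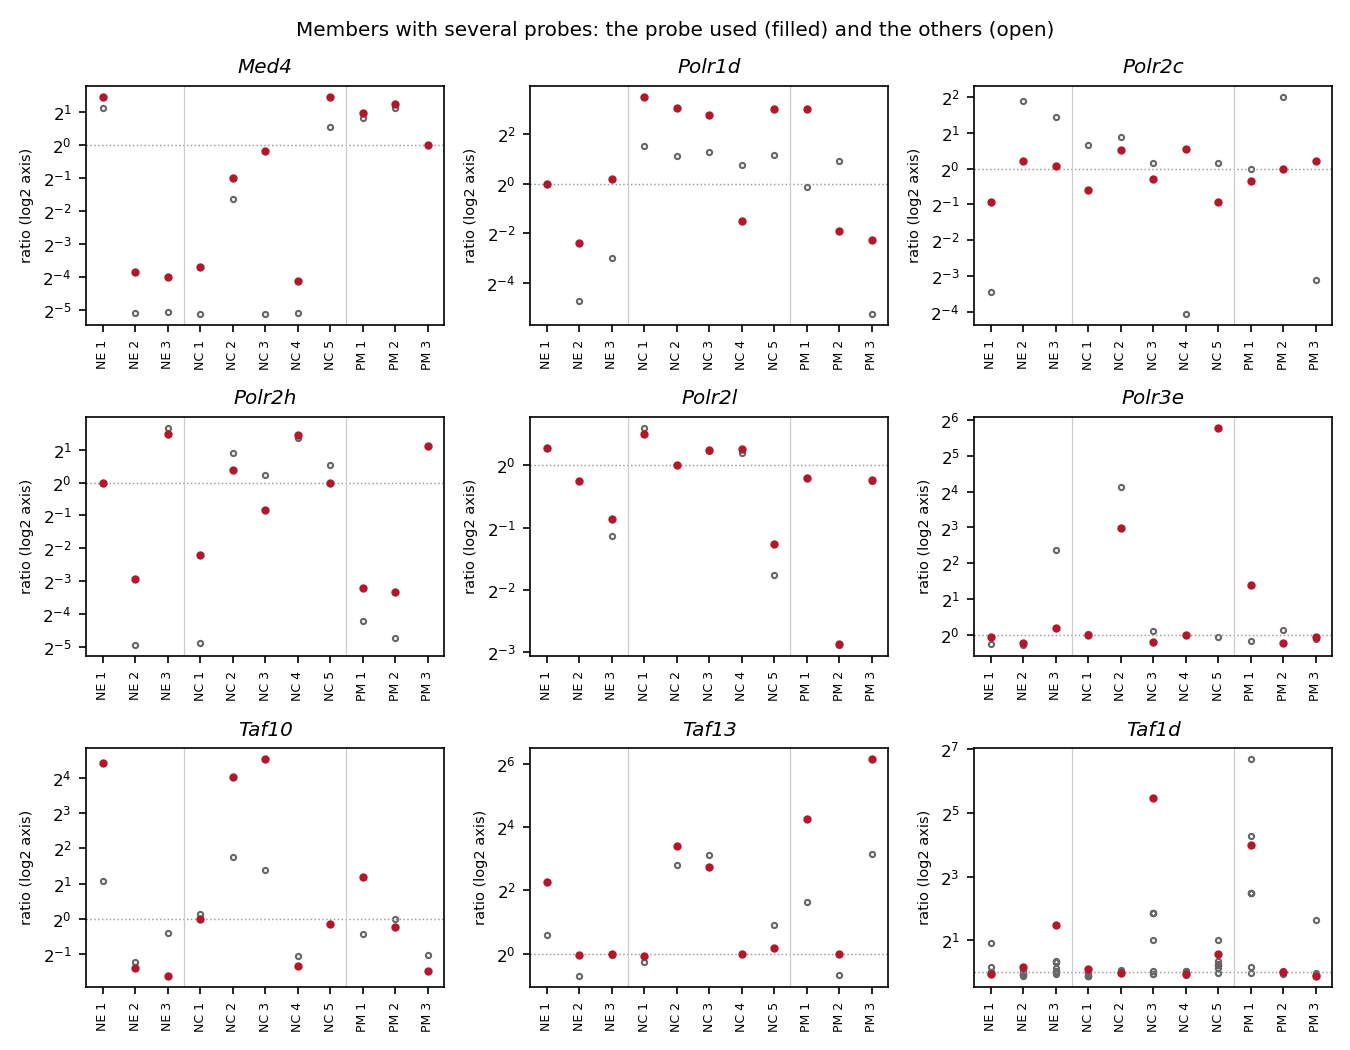
Log2 ratio on each array for all single-symbol probes of the 9 members with several probes, with the probe used drawn filled. Probes of Polr2l lie together, while those of Polr3e are 56.4-fold apart on neural crest array 5 and those of Taf1d 47.0-fold apart on neural crest array 3.

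Other genes of the transcription machinery, taken from a list of general factors, elongation factors and polymerase I and III factors, also had arrays far from the reference. Of 59 listed genes 56 were measured, and 30 of these had high arrays only (53.6%, against 20.2% of all genes). Low arrays only were found for 2 (3.57%, against 3.27%) and both kinds for 5 (8.93%, against 1.505%). Within 2-fold of the reference on all arrays were 15 (26.8%, against 71.8%). None of the 56 passed the test in any of the 3 comparisons in limma. At an unadjusted p under 0.05 there were 2 in crest against neuroepithelium (3.57%, against 2.79% of all genes). There were 4 in crest against paraxial mesoderm (7.14%, against 2.89%) and 2 in paraxial mesoderm against neuroepithelium (3.57%, against 2.48%). Rrn3, which recruits polymerase I to ribosomal DNA, was high on paraxial mesoderm array 1 alone (13.1), and Ubtf, its architectural partner, on neural crest array 1 (5.87) and paraxial mesoderm array 1 (9.64). Maf1, the repressor of polymerase III, was low on neural crest arrays 1 and 4 (0.0231 and 0.0249).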

How the data were processed

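Expression was measured on 11 arrays in 3 tissues. The submitters' processing notes name RMA and mm9 with neither role nor version, and the authors' scaling step is not given in the sources used. The deposited values are linear ratios to a reference of each probe, with a lowest value of 0.01, so the number of arrays limits the precision and signal over background is unknown. The log2 of the deposited ratio was taken here, with no pseudocount and no filter. Of 35557 probes listed, 6701 were blank and 28856 had values. The platform annotation gave 21789 of these 1 symbol, 1621 several and 5446 none. Probes with several symbols were left out, among them 3 of members (with Taf9, Med20 and Polr2k). The 97 member probes stood for 81 genes, all matched to RefSeq by Entrez ID with 0 symbols changed. A gene was given by its probe with the highest mean log2 ratio, which favours probes with high arrays.

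Tissues were taken from the labels. limma 3.58.1 in R 4.3.3 fitted 3 tissue means over the 11 arrays (lmFit, eBayes without an intensity trend, since ratios hold no intensity), with two-sided p-values adjusted by Benjamini-Hochberg over 19938 genes and a threshold of 0.05. The fit was run on simulated data with independent normal noise, where the check was that median estimates lay near the differences put in. The noise was unlike these ratios, so this does not show how often the fit finds or misses differences here. Counts were made in Python 3.11.15 with pandas 2.3.3 and numpy 2.4.6. High and low arrays were 4-fold or more from the reference. Genes are named where groups did not overlap and the log2 difference was at least 1, where they had the 5 largest differences in either direction of a comparison, or the highest or lowest ratio of a complex, with those within 2-fold on all arrays and paralog partners beside them. Further members named in the account of high and low arrays, single-array members and partners in a complex were chosen after their values were seen. Alternatives were other moderation, scaling, a pseudocount of 0.1, a filter, the mean of probes, the replicate number as a block, only the compared tissues, and each array left out. Members, lists and settings were chosen with earlier results of these data known.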

Additional observations from a re-analysis of the deposited data

Results flagged for a closer look

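Of 25 named members, 8 had a neural crest array that stood apart from the other 4 by Dixon's test. By chance that test picks about 1 in 20 groups, but these members were named partly for extreme ratios or large differences, so that rate is no comparison for the count, which is a description. Med10 was at 1.16 on neural crest array 2, and its other crest ratios were 0.0112 to 0.0169. Med30 was at 1.00 on array 1, against 21.8 to 65.7. Polr1d was at 0.352 on array 4, against 6.93 to 11.4. Low single arrays were those of Med8 on array 4 (0.0423) and Taf9 on array 1 (0.0288). High single arrays were those of Polr2k on array 3 (3.38), Taf1d on array 3 (44.9) and Polr3g on array 5 (11.9). The arrays that stood apart were 2 times array 1, 1 time array 2, 2 times array 3, 2 times array 4 and 1 time array 5. Arrays of the other tissues, with 3 in each, were not tested.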

How the results depend on the processing

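No member passed the threshold in any alternative, and the lowest adjusted p of a member was 0.858. Of 620 values of 31 named differences, 618 kept their direction. Their size held less: 23 of the 31 moved by over 1.5 times without some array, and 18 of them shrank by that much. The reversed ones were crest minus neuroepithelium for Polr2i (-0.42 without neuroepithelium array 2) and Polr2j (0.047 without neuroepithelium array 1), with ranges over left-out arrays of -0.42 to 2.88 and -3.37 to 0.047. The cause was not tested. Over all settings Polr2m was -1.80 to -1.11 in crest minus neuroepithelium and -2.29 to -1.26 in paraxial mesoderm minus neuroepithelium, and in crest minus neuroepithelium Polr1e was 3.60 to 5.01 and Med22 1.05 to 2.07. Med10, with low ratios near the lowest deposited value, was -6.16 to -2.49 over all settings in crest minus paraxial mesoderm. It was 2.09 to 6.18 in paraxial mesoderm minus neuroepithelium. In paraxial mesoderm minus neuroepithelium leaving out single arrays gave -3.53 to -0.41 for Taf9, -3.41 to -0.61 for Med7 and -4.52 to -1.12 for Polr2i, and in crest minus neuroepithelium -2.20 to -0.13 for Polr2k. Genes past the threshold over the whole table numbered 6, 2 and 3 in crest against neuroepithelium, crest against paraxial mesoderm and paraxial mesoderm against neuroepithelium, and 6 over the 3 tissues. With an intensity trend the first, second and last were 2, 0 and 3. With only the 2 tissues compared there were 11 in crest against neuroepithelium and 5 in paraxial mesoderm against neuroepithelium. Leaving out single arrays gave 5 to 19, 1 to 43 and 3 to 39, and 5 to 42 over the 3 tissues. Without paraxial mesoderm array 3 there were 43 in crest against paraxial mesoderm, 39 in paraxial mesoderm against neuroepithelium and 42 over the 3 tissues. Among members the count was 0 in each of these.

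Deviations of arrays with the same replicate number correlated at -0.153 to 0.0505 (9 pairs), and those with different numbers at -0.164 to 0.169 (30 pairs). The same-number pairs were thus no more alike than the others. With so few arrays this cannot show whether arrays of the same number shared an embryo or a batch. With the replicate block 6, 3 and 2 genes passed, 5 over the 3 tissues, and 0 members. For the counts of members with a high or low array, 3 kinds of setting were chosen after seeing the data. They were a left-out array, an 8-fold cut and quantile scaling. The 44 members with a high array became 36 without paraxial mesoderm array 1 (44.4%, against 19.4% of all genes) and 32 at 8-fold (39.5%, against 18.1%). The 16 with a low array became 16 without neuroepithelium array 2 (19.8%, against 4.65%) and 13 at 8-fold (16.0%, against 3.78%). After quantile scaling the members numbered 48 with a high and 18 with a low array, and the shares of all genes were not computed. The reference hides levels, so a gene near 1 on all arrays may be silent or evenly active.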

Other observations

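Polr3g, the polymerase III subunit linked to pluripotent cells, and Pou5f1, a pluripotency factor chosen after its values were seen, had their highest ratios on the same 2 arrays. Pou5f1 was at 45.4 on neuroepithelium array 3 and 106 on paraxial mesoderm array 2, where Polr3g was at 33.4 and 47.1. On neural crest array 4 Pou5f1 was high (32.6) and Polr3g was at 1.02. On neural crest array 5 and paraxial mesoderm array 1 Polr3g was high (11.9 and 13.5) and Pou5f1 was at 0.913 and 1.00. Polr3gl lay between 0.912 and 1.18 on all arrays.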
